A study of Homo sapiens with 6 samples.

Results

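K562, a human leukemia line with red cell features, was analysed here for 40 genes of mitosis and of the G2/M step of the cell cycle. The 40 symbols were given as a list of mitotic kinase, cyclin, kinetochore and spindle genes. All 40 were found among the 62252 annotated genes with a transcript in the deposited tables, and all 40 passed the count minimum (a mean of more than 10 estimated counts over the 6 libraries) that left 21045 genes for testing. PolyA RNA was sequenced from 3 libraries of −Dox cells and 3 libraries of +Dox cells. Both groups were the same stable line, made from a single-cell K562 clone (K562flox) with lox sites at the AAVS1 locus, in which recombinase-mediated exchange had placed an inducible Flag-PCBP1 gene (tet promoter) together with a puromycin marker. The line after exchange was polyclonal and kept under puromycin. The +Dox cells received doxycycline (Dox), which switches on Flag-PCBP1, an RNA-binding protein that also delivers iron within cells, and the −Dox cells did not. Dox was present only with Flag-PCBP1, so the effects of the drug and of the protein cannot be told apart, and the dose and time of Dox for these libraries are not given in the sources used here. The labels number the libraries but do not say that they came from separate cultures, so p-values measure the spread between these 3 libraries of each group, which may be technical.

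Cells pass from G2 into mitosis when CDK1, bound to cyclin A or cyclin B, becomes active. Chromosomes then condense and attach through kinetochores to spindle microtubules, the spindle checkpoint holds back the anaphase-promoting complex until all are attached, and this complex, with its activator CDC20, marks securin and cyclin B for destruction. The mRNAs of these proteins accumulate together late in the cycle, through MuvB complexes with B-MYB and FOXM1 at a short promoter element, the cell cycle genes homology region (CHR), and through NF-Y at CCAAT boxes. In bulk libraries, a larger share of cells in G2 or mitosis and more RNA in each such cell cannot be told apart.

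Promoter sequence is shown because these elements, which were not used to list the genes, were in many of their promoters. RefSeq promoter windows (GRCh38.p14, from 250 bases before to 50 bases after the start of the gene) were matched for 33 of the 40 genes. Either strand was searched for TTTGAA or TTCGAA, the letters of the CHR, and for CCAAT, and the matches may overlap. A single window was kept for each of the 33 genes. The background was every window, counted as it stood and not limited to expressed or tested genes. The CHR letters were in 24 of the 33 windows (72.7%), and in 16.4% of all 35116 windows. CCAAT was in 25 of 33 (75.8%), and in 34.6% of all windows. Both were in 20 of 33 (60.6%), and in 6.38% of all windows. Of the 16 matched genes that were higher in +Dox, 13 held the CHR letters, 11 held CCAAT and 10 held both. Of the 17 matched genes that were not called, 11 held the CHR letters, 14 held CCAAT and 10 held both. The 250 bases before the start are printed for CDC20, with the largest change, CDK1, with the highest level, and MKI67, a proliferation marker that was not called. MKI67 was picked for print after its values and letters had been seen. Capitals mark the CHR and CCAAT letters on either strand, so that TTCAAA and ATTGG are matches on the opposite strand.
CDC20, chr1:43358731-43358980, plus strand: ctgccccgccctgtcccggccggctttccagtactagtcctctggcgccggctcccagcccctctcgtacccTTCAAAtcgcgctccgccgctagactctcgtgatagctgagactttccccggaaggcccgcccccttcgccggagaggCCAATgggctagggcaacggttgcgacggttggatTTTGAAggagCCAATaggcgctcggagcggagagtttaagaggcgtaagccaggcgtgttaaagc
CDK1, chr10:60778081-60778330, plus strand: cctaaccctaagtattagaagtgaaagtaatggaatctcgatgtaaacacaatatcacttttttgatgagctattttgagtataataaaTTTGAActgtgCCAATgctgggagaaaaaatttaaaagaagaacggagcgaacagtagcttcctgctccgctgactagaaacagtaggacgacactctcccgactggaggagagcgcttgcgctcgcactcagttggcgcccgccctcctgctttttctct
MKI67, chr10:128126424-128126673, minus strand: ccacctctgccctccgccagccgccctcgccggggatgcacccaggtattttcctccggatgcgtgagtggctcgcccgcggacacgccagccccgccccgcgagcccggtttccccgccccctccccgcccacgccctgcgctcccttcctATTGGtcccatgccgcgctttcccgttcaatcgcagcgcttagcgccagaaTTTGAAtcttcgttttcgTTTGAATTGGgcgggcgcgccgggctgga
In CDC20 and CDK1 a CCAAT box lies a few bases from the CHR letters, and in MKI67 TTTGAA runs into ATTGG. CDC25C and CENPE, which were higher in +Dox, and CDC25B and KIF2C, which were not called, had neither set of letters in their windows. A match is a description of letters and not of bound protein.

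Depth was similar across libraries. Total estimated counts of −Dox replicates 1 to 3 were 84177316, 80104627 and 74766040, and those of the +Dox libraries, given in the same order as all values by library here, were 70905656, 82263502 and 82449808. Apart from UBE2C, each of the other 39 genes held at least 1513 counts in every library, and the highest held 94658. Genes are compared between groups in CPM (counts scaled to a common library size with TMM factors), and levels of different genes in TPM, which also accounts for transcript length. PCBP1, the induced gene, measured 247.5, 269.5 and 266.9 CPM in the −Dox libraries, against 1030, 936.4 and 1037 CPM in the +Dox libraries. It was 3.83-fold higher (log2 fold change 1.94, SE 0.055, edgeR adjusted p = 5.22e-10), and its groups were far apart, as the labels say. All 10 K562 and erythroid markers listed were expressed, from TAL1 at 13.5 TPM in −Dox to HBG2 at 9789 TPM, with 3 of them higher and 3 lower in +Dox. Markers of B cells (MS4A1 and PAX5) and of T cells (CD8A) were at 0 counts in every library, and the monocyte markers CD14 and CSF1R had at most 14 and 11 counts. LYZ, the most abundant gene of the monocyte list, fell from 112 to 78.6 TPM, which made the summed level of that list 94.1, 109 and 131 TPM in −Dox and 73.2, 77.3 and 85.4 TPM in +Dox. The part of such genes in the results was not tested.

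**Figure D1:**
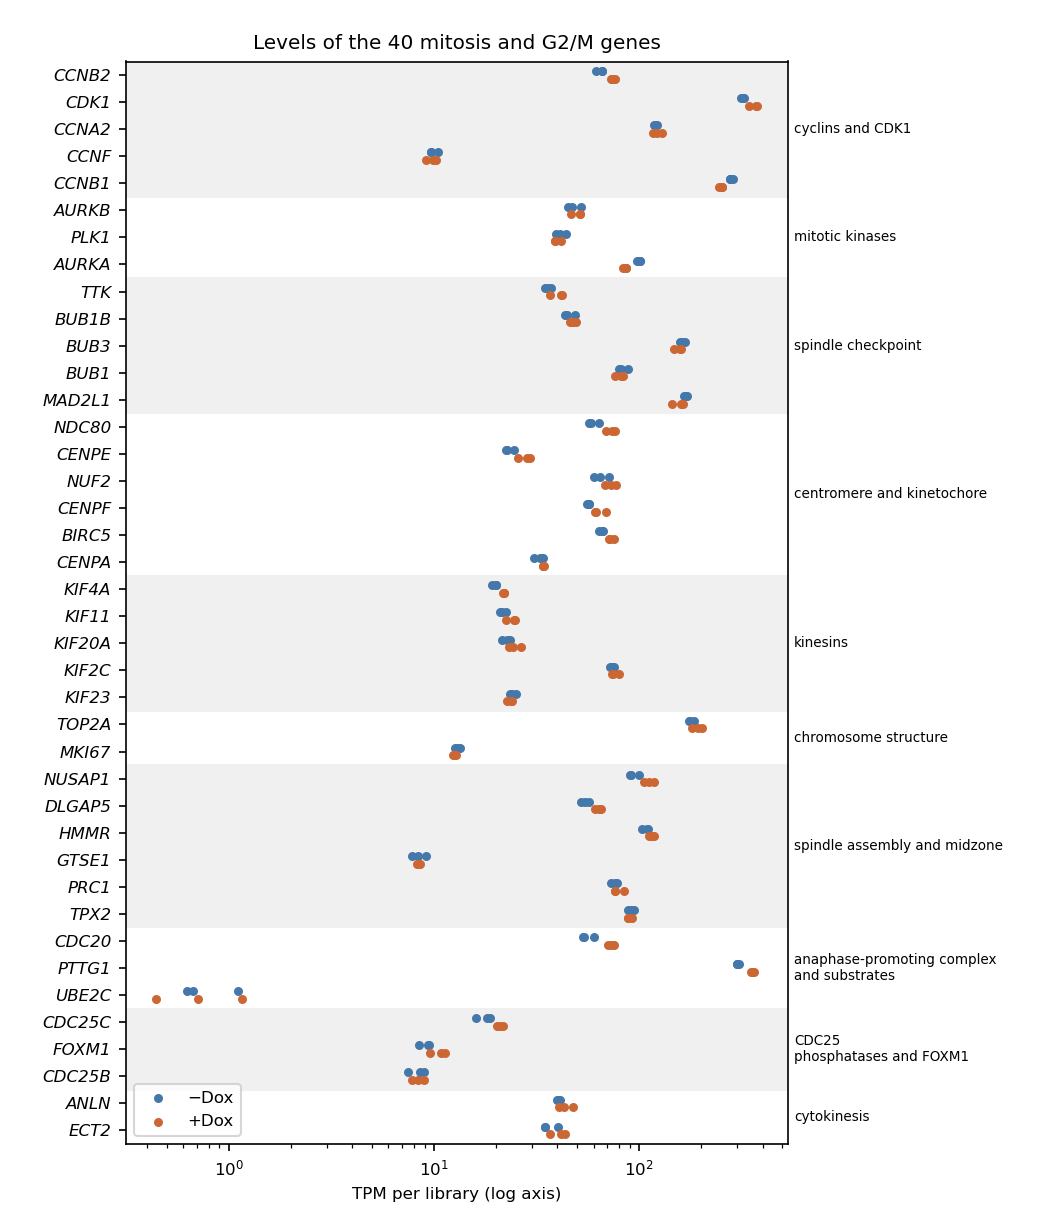
Levels of the 40 mitosis and G2/M genes in TPM per library on a log axis, grouped by role, with −Dox libraries in blue and +Dox libraries in orange. Mean levels ran from 0.784 TPM for UBE2C to 342 TPM for CDK1.

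Levels over all 6 libraries had a median of 59.5 TPM. CDK1 led with a mean of 342 TPM, followed by PTTG1 (securin) at 329, CCNB1 (cyclin B1) at 266, TOP2A at 186 and MAD2L1 at 163 TPM. The range of CDK1, 315 to 377 TPM, overlapped that of PTTG1, 300 to 364 TPM, so their order did not exceed the spread. Of the 39 pairs of neighbours in the order of mean level, 28 had ranges that overlapped. CCNF, FOXM1, GTSE1 and CDC25B were all below 10 TPM. UBE2C, the ubiquitin-conjugating enzyme that works with the anaphase-promoting complex, stood apart with 20 to 46 counts in a library and a mean of 0.784 TPM. UBE2CP5, annotated as a processed copy of UBE2C and looked up after that low value was seen, held 199 to 321 counts and 4.27 TPM in −Dox and 4.39 TPM in +Dox. Reads of near-identical copies can be split between them, so the level of UBE2C is uncertain.

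Messenger RNA of 18 of the 40 mitosis and G2/M genes was higher in +Dox cells at an adjusted p under 0.05 (edgeR), 1 was lower, and 21 did not pass the test. In the background of all genes tested, 8.16% were called higher, 7.68% lower and 15.8% in either direction. The increases ran from 12.1% for TOP2A to 35.3% for CDC20. Not 1 of the 40 also had an absolute log2 fold change above 1, the limit of the study for differentially expressed genes, which 1.46% of all genes passed. The median log2 fold change was 0.14 over the 40 genes and 0.01 over all genes tested. Of the 40 values 34 were above 0 (85%), against 51.1% of all genes tested. In 27 of the 40 genes every +Dox library lay above every −Dox library in CPM (17.4% of all genes), and in AURKA and CCNB1 every +Dox library lay below (15.8% of all genes). A set of 6908 genes with a mean of at least 10 TPM, formed after the data had been seen to match the abundance of most members, had 12.4% higher and 15.0% lower with a median of −0.01. The 35 members in that set had 17 higher and 1 lower with a median of 0.15.

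The +Dox libraries did not contribute alike. Replicate 3 of +Dox had the highest +Dox CPM in 16 of the 18 genes called higher, and replicate 1 the lowest in 11. Without +Dox replicate 3 the number called higher was 11, without −Dox replicate 3 it was 11, and without −Dox replicate 2 it was 12. In each of 12 other settings, which included these, 9 genes remained higher (CCNB2, CDK1, CENPE, CDC20, CDC25C, NUSAP1, NDC80, DLGAP5 and PTTG1). All 18 kept a positive log2 fold change in every setting.

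**Figure D2:**
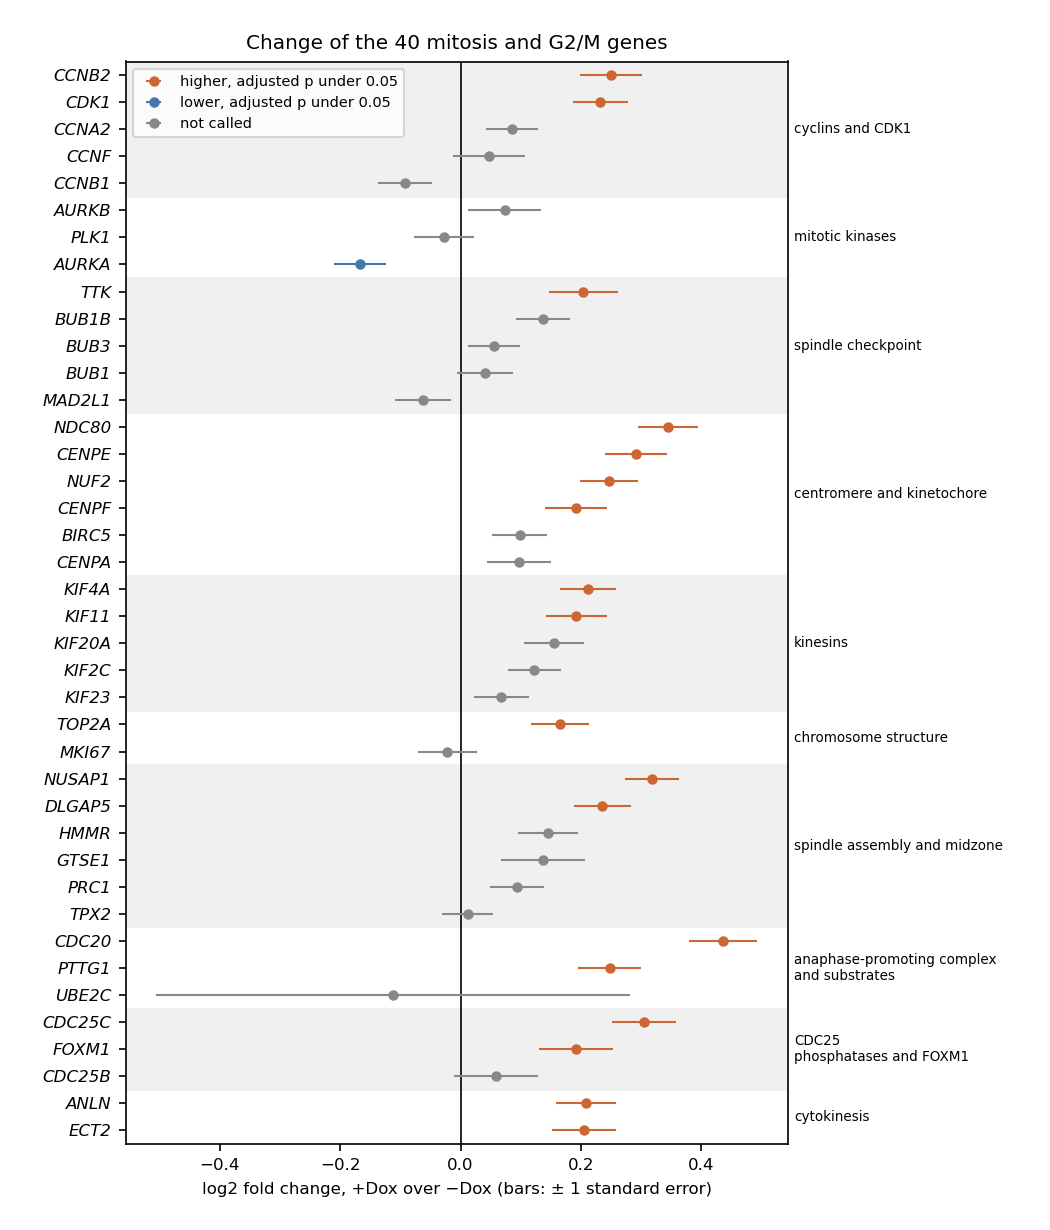
Log2 fold change of each of the 40 mitosis and G2/M genes, +Dox over −Dox, from the edgeR fit over all genes, grouped by role (bars, 1 standard error on each side). The 18 genes in orange were higher, AURKA in blue was lower, and the wide bar is UBE2C with 20 to 46 counts.

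Cyclins and CDK1 drive entry into mitosis. CDK1 (ENSG00000170312.17, chr10:60778331-60794852, plus strand), the kinase itself, measured 462.2, 464.9 and 468.8 CPM in the −Dox libraries, against 524.9, 542.9 and 571.7 CPM in the +Dox libraries. The −Dox libraries were within a few CPM of each other, and all +Dox libraries lay above them, 17.5% higher (log2 fold change 0.23, SE 0.046, edgeR adjusted p = 0.00406). CCNB2 (cyclin B2) measured 85.4, 88.1 and 81.6 CPM in the −Dox libraries, against 99.6, 97.4 and 106 CPM in the +Dox libraries. It was 18.9% higher (log2 fold change 0.25, SE 0.052, edgeR adjusted p = 0.00579). CCNB1 (cyclin B1), the other B-type cyclin listed, averaged 382 ± 8.35 CPM in the −Dox libraries and 358 ± 12.2 CPM in the +Dox libraries (SD, n = 3 each), without passing the test (edgeR adjusted p = 0.199). The −Dox and +Dox libraries of CCNB1 did not overlap, with +Dox below. CCNA2 (cyclin A2) and CCNF (cyclin F) were not called, at log2 fold changes of 0.09 and 0.05.

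The mitotic kinases held the 1 gene that fell. AURKA (Aurora A, a kinase of centrosomes and spindle poles, ENSG00000087586.18, chr20:56369389-56392337, minus strand) measured 160.6, 158.8 and 160.8 CPM in the −Dox libraries, against 145.9, 139.7 and 142.0 CPM in the +Dox libraries. Every +Dox library lay below every −Dox library, and the level fell by 0.17 on the log2 scale (SE 0.043, edgeR adjusted p = 0.0194). This call held in 7 of the 12 other settings. AURKB (Aurora B, of the chromosomal passenger complex) and PLK1 (Polo-like kinase 1) were not called, at log2 fold changes of 0.07 and −0.03. The processed copy AURKAP1 held 70 to 163 counts, against at least 10352 for AURKA.

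Of the 5 spindle checkpoint genes, 1 was called. TTK (the kinase MPS1, which starts checkpoint signalling at kinetochores) averaged 96.5 ± 3.72 CPM in the −Dox libraries and 111 ± 8.2 CPM in the +Dox libraries (SD, n = 3 each) and was 15.2% higher (edgeR adjusted p = 0.0307). BUB1B, BUB3, BUB1 and MAD2L1, the other checkpoint genes, had log2 fold changes of 0.14, 0.06, 0.04 and −0.06, and none passed the test.

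Centromere and kinetochore genes had 4 of 6 called, all higher. NDC80 and NUF2 encode partners in the complex that grips microtubules. NDC80 (ENSG00000080986.13, chr18:2571557-2616635, plus strand) measured 111.7, 106.9 and 104.9 CPM in the −Dox libraries, against 133.2, 133.8 and 143.7 CPM in the +Dox libraries. It was 27.0% higher (log2 fold change 0.34, SE 0.049, edgeR adjusted p = 0.000533), and the groups were well apart. NUF2 measured 89.3, 87.5 and 90.4 CPM in the −Dox libraries, against 101.4, 105.9 and 109.6 CPM in the +Dox libraries, 18.6% higher (edgeR adjusted p = 0.00376). CENPE, a kinesin that carries chromosomes to the spindle equator, measured 201.8, 190.1 and 187.6 CPM in the −Dox libraries, against 222.0, 242.9 and 244.0 CPM in the +Dox libraries. It was 22.3% higher (log2 fold change 0.29, SE 0.051, edgeR adjusted p = 0.00213), with +Dox replicate 1 nearest to the −Dox libraries. CENPF, a large kinetochore protein, was 14.2% higher (edgeR adjusted p = 0.0233). BIRC5 (survivin) and CENPA, the centromeric histone H3, were not called, both at a log2 fold change of 0.10.

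Motors of the kinesin family had 2 of 5 called, both higher. KIF4A, which binds chromosome arms and the central spindle, measured 89.0, 88.0 and 89.8 CPM in the −Dox libraries, against 103.9, 99.5 and 105.6 CPM in the +Dox libraries. The spread within −Dox was small beside the gap, and KIF4A was 15.9% higher (log2 fold change 0.21, SE 0.046, edgeR adjusted p = 0.00748). KIF11 (Eg5, which separates the spindle poles) was 14.2% higher (edgeR adjusted p = 0.0210). KIF20A, KIF2C and KIF23 had log2 fold changes of 0.15, 0.12 and 0.07 and were not called. KIF20A had the smallest adjusted p among the uncalled genes, 0.0525 (edgeR). In all 5 kinesins every +Dox library lay above every −Dox library in CPM.

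Spindle assembly and midzone genes had 2 of 6 called. NUSAP1, which bundles microtubules near chromosomes (ENSG00000137804.14, chr15:41320794-41381050, plus strand), measured 170.3, 168.5 and 170.1 CPM in the −Dox libraries, against 207.2, 207.3 and 219.8 CPM in the +Dox libraries. Its −Dox libraries were nearly equal, and it was 24.7% higher (log2 fold change 0.32, SE 0.044, edgeR adjusted p = 0.000444). DLGAP5 (HURP), which stabilises fibres at kinetochores, measured 147.7, 137.8 and 138.9 CPM in the −Dox libraries, against 164.7, 162.9 and 172.0 CPM in the +Dox libraries. It was 17.7% higher (edgeR adjusted p = 0.00475). HMMR, GTSE1, PRC1 and TPX2 were not called, at log2 fold changes from 0.01 for TPX2 to 0.15 for HMMR. A locus annotated on the same strand covers 81.4% of the exon bases of NUSAP1 but held only 15 to 92 counts, and a readthrough locus that covers 57.6% of the exon bases of PRC1 held 2893 to 3878 counts and was itself higher in +Dox (edgeR adjusted p = 0.0417), so the level of PRC1 is uncertain.

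Of the genes of the anaphase-promoting complex and its targets, CDC20 and PTTG1 were higher. CDC20 (ENSG00000117399.14, chr1:43358981-43363203, plus strand) had the largest change of the 40 and measured 77.5, 83.5 and 89.0 CPM in the −Dox libraries, against 117.4, 108.5 and 112.4 CPM in the +Dox libraries. It was 35.3% higher (log2 fold change 0.44, 95% interval 0.32 to 0.55, edgeR adjusted p = 0.000295), and its order among the +Dox libraries differed from that of most members, with replicate 1 highest. PTTG1 (securin, which restrains separase) measured 151.2, 161.8 and 152.9 CPM in the −Dox libraries, against 189.3, 172.4 and 191.6 CPM in the +Dox libraries. It was 18.7% higher (edgeR adjusted p = 0.00640). UBE2C had a log2 fold change of −0.11 with a 95% interval from −0.88 to 0.66, so that a change of the size seen in CDC20 was not detectable at its depth.

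CDC25C, a phosphatase that activates CDK1, measured 29.0, 28.6 and 29.8 CPM in the −Dox libraries, against 37.1, 35.3 and 35.6 CPM in the +Dox libraries. It was 23.6% higher (log2 fold change 0.31, SE 0.053, edgeR adjusted p = 0.00196), and its groups were well apart. FOXM1, the transcription factor of late cell cycle genes, was 14.3% higher at the edge of the threshold (edgeR adjusted p = 0.0496) and held the call in 3 of the 12 other settings. CDC25B was not called, at a log2 fold change of 0.06. Exons of ITFG2 on the other strand overlap 15.9% of the exon bases of FOXM1, and those of FAM53C overlap 8.80% of CDC25C, and neither neighbour was called.

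Both cytokinesis genes rose. ANLN (anillin, a scaffold of the contractile ring) measured 171.8, 176.9 and 167.2 CPM in the −Dox libraries, against 187.2, 202.3 and 206.4 CPM in the +Dox libraries, 15.5% higher (edgeR adjusted p = 0.0126). ECT2, the exchange factor that activates RhoA at the cleavage plane, was 15.3% higher (edgeR adjusted p = 0.0193). ANLN was not called without +Dox replicate 3, without −Dox replicate 3 or with the transcript length offset, and ECT2 was called in 6 of the 12 other settings. Of the chromosome structure genes, TOP2A (topoisomerase II alpha, which untangles sister chromatids) was 12.1% higher (edgeR adjusted p = 0.0348). MKI67 (Ki-67, which coats mitotic chromosomes) measured 168.2, 158.5 and 157.8 CPM in the −Dox libraries, against 159.6, 165.4 and 152.4 CPM in the +Dox libraries. Its groups overlapped (log2 fold change −0.02, 95% interval −0.12 to 0.07, edgeR adjusted p = 0.827).

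**Figure D3:**
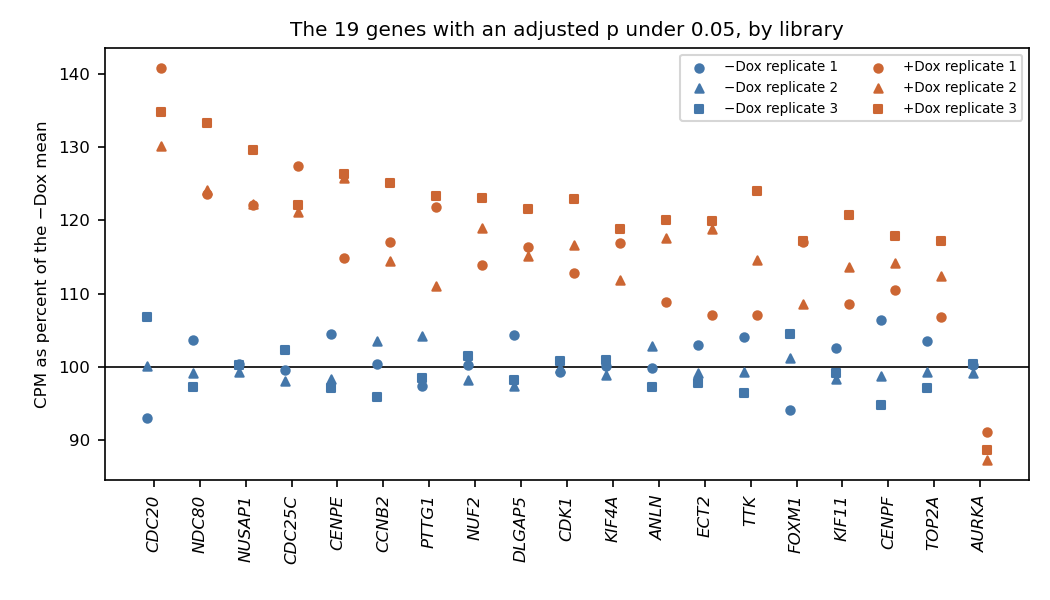
The 19 genes with an adjusted p under 0.05, each library as a percent of the −Dox mean in CPM (line at 100), with blue for −Dox, orange for +Dox and a shape for each replicate number. Every +Dox library lay above the −Dox libraries in 18 genes and below them in AURKA, and +Dox replicate 3 was highest of the +Dox libraries in 16 of the 18.

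The 21 genes that did not pass the test had log2 fold changes from −0.11 to 0.15, with 16 above 0 and 5 below, and adjusted p from 0.0525 to 0.897 (edgeR). A p that misses the threshold does not show that these genes were unchanged.

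On the TPM scale the summed difference was smaller, while some genes, such as AURKA (log2 ratio of mean TPM −0.22) and FOXM1 (0.21), differed more than in CPM. Summed over the 40 genes, TPM was 3091, 2985 and 3040 in −Dox and 3103, 3314 and 3240 in +Dox, with means of 3038 ± 52.9 and 3219 ± 107 (SD, n = 3 each) and an increase of 5.95%. Replicate 1 of +Dox lay close to the highest −Dox library. Summed CPM was 6969, 6886 and 6835 in −Dox and 7386, 7513 and 7811 in +Dox, an increase of 9.77% with no overlap. The median log2 ratio of mean TPM was 0.11 over the 40 genes and −0.03 over all genes tested. In TPM 13 of the 18 genes called higher had groups that did not overlap, and NUF2, ANLN, ECT2, TTK and TOP2A overlapped. The TPM ratio and the CPM log2 fold change differed in sign in 6 genes, none of which was called (CCNF, BUB1, BUB3, KIF23, TPX2 and GTSE1). With an offset for average transcript length, 11 genes were called higher and 1 lower.

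Other genes of the cell cycle were set beside these from lists written from general knowledge. Of 73 other mitosis genes, 24 were higher and 4 lower (edgeR, adjusted p under 0.05), with a median log2 fold change of 0.12. The 5 with the smallest p that rose were SPC24, a partner of NDC80 (49.0 ± 2.56 CPM in −Dox and 66.2 ± 3.51 in +Dox, SD, n = 3 each), CENPH, TROAP, SKA1 and DSN1, with log2 fold changes from 0.30 to 0.43. Those that fell were PBK, LMNB1, SKA3 and CKS2, with log2 fold changes from −0.28 for PBK to −0.17 for SKA3. Of 22 condensin and cohesin genes, 4 were higher (NCAPG, SGO1, NCAPG2 and SMC4, at log2 fold changes of 0.32, 0.21, 0.17 and 0.16), with a median of 0.09 and a lowest value of −0.10. The list of 17 anaphase-promoting complex genes held subunits and also FBXO5, FZR1 and UBE2S, which act on or with the complex. It had 1 higher, ANAPC16 at 0.24, and 1 lower, ANAPC1 at −0.22, and a median of 0.00. Of 22 regulators of these promoters (the DREAM and MYB-MuvB complexes, E2F and NF-Y), 3 were higher (E2F2 at 0.38, RB1 at 0.26 and TFDP2 at 0.16) and 1 lower (NFYA at −0.16), with a median of 0.08. Of 42 genes of DNA replication and G1/S, 4 were higher (among them TK1 at 0.28, CCNE1 at 0.35 and POLA2 at 0.21) and 2 lower (UHRF1 at −0.21 and MCM6 at −0.14), with a median of 0.02. The shares called in these last 4 lists, 11.8% to 18.2% in either direction, were near the 15.8% of all genes, and the difference between lists was not tested. Values above 0 made up 86.4% of the condensin and cohesin list, against 51.1% of all genes. They made up 72.7% of the regulators, 59.5% of the replication genes and 52.9% of the anaphase-promoting complex genes. In 10 condensin and cohesin genes every +Dox library lay above every −Dox library in CPM, and in 0 below (17.4% and 15.8% of all genes).

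**Figure D4:**
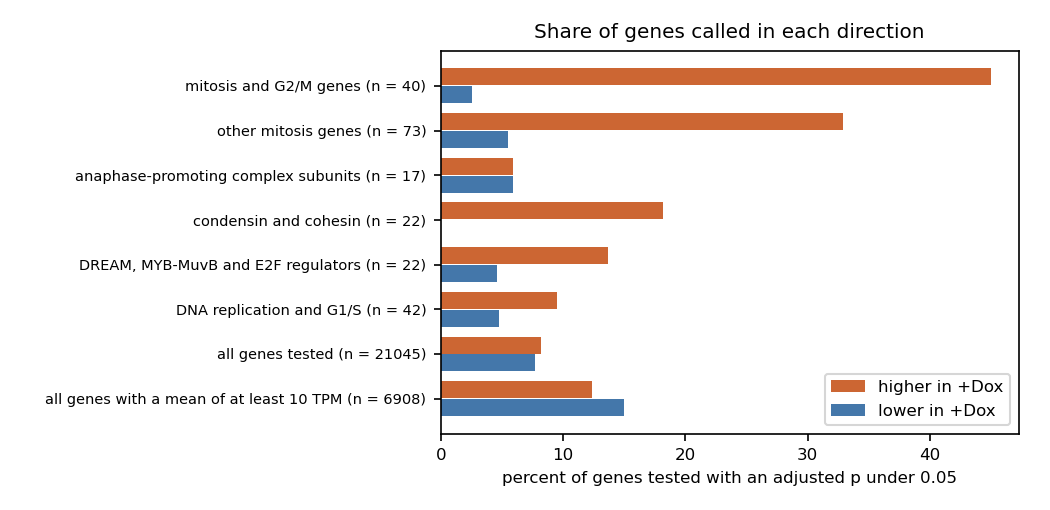
Percent of the genes tested in each list that were called higher (orange) or lower (blue) in +Dox at an adjusted p under 0.05. All genes tested had 8.16% higher and 7.68% lower, and the 40 mitosis and G2/M genes, with 18 higher and 1 lower, had the longest orange bar drawn.

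Isoform make-up of these genes did not pass the test in any case. The share of each transcript in the TPM of its gene was compared for 108 transcripts of 35 of the genes, and 0 were called by limma at an adjusted p under 0.05, against 0.0951% of all 40997 transcripts tested. At an unadjusted p under 0.05 there were 5 of 108, against 7.17% of all transcripts. KIF2C-204, the one with the smallest p, held 8.33%, 9.55% and 8.73% of KIF2C in −Dox and 5.80%, 5.74% and 5.49% in +Dox (limma adjusted p = 0.568), while KIF2C-202 held most of that gene. The others were CENPA-201 (10.7% in −Dox and 15.1% in +Dox), BIRC5-202 (73.0% and 65.8%), FOXM1-206 (9.43% and 4.95%) and GTSE1-201 (66.2% and 72.9%). Protein-coding transcripts held 14.4% of the TPM of MAD2L1 in both groups, and MAD2L1-202, annotated for nonsense-mediated decay, held the largest share, 56.9% in +Dox.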

How the data were processed

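Per the submitters' notes and the methods of the study, the authors quantified paired-end reads with Salmon 1.10.2. The authors deposited, for each of 252045 transcripts and each library, an estimated count (Salmon expected count), which is not scaled for depth or length, and a TPM value, scaled for effective length and library size. The index and strand setting are not given in the sources used here, so overlapping genes on opposite strands and near-identical copies are uncertain. Transcripts were matched to GENCODE 44 on GRCh38 (251612 matched, 433 not, which held 0.125% to 0.138% of counts), and counts were summed per gene and rounded.

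Genes with a mean count above 10 were fitted with edgeR 4.0.16 (quasi-likelihood, TMM, two-sided, Benjamini-Hochberg over 21045 genes) in R 4.3.3, without a replicate term. CPM used the TMM factors, and standard errors were obtained by dividing a log2 fold change by the root of its F statistic. The 95% intervals treated these errors as normal and are narrower than the edgeR test allows. That of CCNB1 lay wholly on the negative side, from −0.18 to −0.0043, though its unadjusted edgeR p was 0.061. An exact permutation test of 3 against 3 cannot give a p below 0.1. Transcript shares were tested with limma 3.58.1 on log2 ratios with a pseudocount of 0.1 TPM, for transcripts with a mean count of at least 10 and 5 to 95 percent of their gene. Alternatives were DESeq2 1.42.0, RLE size factors, other count filters, a transcript length offset, a replicate block and leaving out each library, and for shares another pseudocount, counts and a higher filter. Python 3.11.15, pandas 2.3.3, numpy 2.4.6 and matplotlib 3.10.9 made tables and figures.

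The members and lists were chosen with earlier results of these data known. Values in every library are given for members with an adjusted p under 0.05, up to the 12 with the smallest p, and for those with the highest level and largest change, and for other lists up to 5 genes in each direction. Not every gene under this rule is reported here. AURKA and MKI67 by library, the sequence of MKI67, UBE2CP5, AURKAP1 and the overlapping genes are outside that rule and were picked after values were seen.

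The steps were tested on simulated data in 3 versions. The first, with the spread of each gene as estimated for it, recovered fewer changes than was required, and the share of unchanged genes among its calls was above the nominal rate. Versions with the spread from the trend with abundance, and with changes placed only in genes of at least 100 counts, were made after that and passed. Calls near the threshold may therefore be less reliable than their adjusted p. The simulation of transcript shares placed changes only in transcripts of lower spread, and most smaller shifts were missed.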

Additional observations from a re-analysis of the deposited data

How the results depend on the processing

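The number of the 40 genes called higher was 18, and 11 to 18 when 1 library was left out, 11 with the transcript length offset, 12 with the replicate block and 21 with DESeq2. The number lower (AURKA) was 1, and 0 to 1 when 1 library was left out and 0 with the replicate block. All genes called at adjusted p under 0.05 numbered 3333, and 1882 with the length offset and 2267 to 3313 with 1 library left out. With the length offset other mitosis genes had 12 higher and 1 lower, and condensin and cohesin 1 higher. Anaphase-promoting complex genes, DREAM and E2F regulators and DNA replication genes had 0 lower with that offset. With the replicate block other mitosis genes had 2 lower, condensin and cohesin 2 higher, and DREAM and E2F regulators and DNA replication genes 0 lower. DNA replication genes had 1 lower with no count filter, and anaphase-promoting complex genes 2 lower with DESeq2. Leaving out 1 library gave 14 to 24 other mitosis genes higher and 1 to 5 lower, and 1 to 5 condensin and cohesin genes higher. It also gave 1 to 3 regulators higher and 0 to 1 lower. Anaphase-promoting complex genes then had 0 to 1 lower and replication genes 0 to 2 lower. The sum over the 40 genes rose by 9.77% in CPM against 5.95% in TPM. The cause of these differences was not tested. Direction turned only in genes not called. Log2 fold changes with the length offset were −0.011 for BUB1, −0.032 for BUB3 and −0.0076 for KIF23. With 1 library left out PLK1 ran from −0.064 to 0.011 (above 0 without −Dox replicate 3), MKI67 from −0.050 to 0.0089 (above 0 without −Dox replicate 1 or +Dox replicate 3), TPX2 from −0.00074 to 0.024 (below 0 without −Dox replicate 2 or +Dox replicate 3) and UBE2C from −0.355 to 0.167 (above 0 without −Dox replicate 1 or +Dox replicate 3). Libraries with the same number had deviations that correlated at 0.0075, −0.06 and −0.0029 over genes. Those with different numbers ran from −0.073 to 0.076. Such values cannot tell whether libraries with the same number shared a culture or a day, which the labels do not say. With the replicate block 12 of the 40 genes were higher and 0 lower, PCBP1 was at 1.94, 2490 of all genes were called, and 0 transcript shares of these genes. Transcript shares of these genes had 0 calls in every setting run. Depth limits UBE2C most.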
